A study of Mus musculus with 2 samples.

Results

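The complementarity-determining region 3 (CDR3) of the TCR beta chain was read from single thymic CD4 SP T cells in 1 WT library and 1 Btla-/- library, and the CDR3 beta amino acid strings that occurred in both were examined. Members were chosen by the measured amino acid sequence alone: a string was taken as shared when it stood in full in a TRB (TCR beta) contig of each library, whatever the V gene, J gene or nucleotides. There were 113 shared strings, out of 3923 distinct WT strings (2.88%) and 4884 distinct Btla-/- strings (2.31%). They were carried by 131 of 4009 WT cells with a TRB chain (3.27%, exact 95% interval 2.74 to 3.87%) and by 127 of 5014 Btla-/- cells (2.53%, 2.12 to 3.01%), which makes 258 of 9023 cells in all. The share in a library depends on the size of the other library, so these percentages are descriptions and were not compared.

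Per the labels, the WT cells came from C57BL/6J mice and the Btla-/- cells from C57BL/6 mice with a knockout of Btla, which encodes the co-inhibitory receptor BTLA. The paper describes its Btla knockout mice as germline knockouts. Mice of both genotypes were 8 to 12 weeks old, and the number of mice behind each library is not given in the sources used here. Naive CD4 T cells were enriched from thymocytes by negative selection, and their TCR transcripts were sequenced with the 10x Genomics V(D)J workflow, in which each cell carries a barcode and each transcript a unique molecular identifier (UMI). With 1 library per genotype there was no test: intervals are exact (Clopper-Pearson) for shares, cover counting error only, and leave out the differences between mice and between library preparations.

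The WT library held 4141 TRB contigs with 72650 TRB UMIs, and the Btla-/- library 5181 with 69417. Only TCR transcripts were sequenced, so neither Btla nor Cd4 could be checked in these cells. No gamma or delta chain was present. The sources used here do not state whether the TCR amplification could capture such chains, so gamma delta T cells could not be checked either. Among the cells with a shared CDR3 beta and a TCR alpha (TRA) chain, 52 WT and 54 Btla-/- cells, none had the TRAV11-TRAJ18 chain of invariant NKT cells or the TRAV1-TRAJ33 chain of MAIT cells. These chains were also rare in the other cells with a TRA chain, with 8 of 1621 WT (0.494%) and 9 of 1681 Btla-/- cells (0.535%) for TRAV11-TRAJ18 and 2 and 1 cells for TRAV1-TRAJ33, so the counts of 0 do not set the cells with a shared string apart. The libraries had 30 cell barcodes in common, and 1 WT and 2 Btla-/- cells with a shared string carried one of them. The median was 13 UMIs for shared and for one-library TRB contigs in the WT library, and 11 and 10 UMIs in the Btla-/- library. Contigs with fewer than 3 UMIs made up 0 of 131 shared and 2.17% of one-library contigs in WT cells, and 6 of 127 shared (4.72%, 1.75 to 10.0%) and 2.65% (2.23 to 3.13%) of one-library contigs in Btla-/- cells.

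A TCR beta chain is assembled in the thymus by joining a V, a D and a J gene segment. Nucleases trim the segment ends, and terminal deoxynucleotidyl transferase adds non-templated N nucleotides between them, so the CDR3 that spans the joints is the most diverse part of the chain. When several different joining events encode the same amino acids, the process is called convergent recombination, and receptors found in many individuals are called public. Each distinct chain (V gene, J gene and CDR3 nucleotide sequence) was counted once per library below, which gave 126 WT and 121 Btla-/- chains with a shared string and 3851 and 4822 chains with a string found in 1 library only. The amino acid string chose the members, and its length, its start and the J gene it ends with are parts of that string, which also limits the V gene. The shared chains of both libraries carry the same 113 strings, so their lengths, starts, J genes and residues are nearly one list counted in each library, and agreement between the libraries in these is set by the rule and is not a second observation. The nucleotides and the alpha chain were not used. The number of unmatched junction bases is still bounded by the string and its J gene. Agreement between the libraries in junction size is therefore also partly set by the rule.

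The sequences of the most frequent shared strings are shown first because they hold the main pattern, the same peptide with different nucleotides. CDR3 nucleotides run 5′ to 3′ from the codon of the conserved cysteine to that of the closing phenylalanine. Capitals mark bases matched to neither the germline V gene nor the germline J gene, and lower case marks matched bases. The TRB genes lie on chromosome 6 (GRCm38, GENCODE M21 annotation), with the D segments TRBD1 at chr6:41533201-41533212 and TRBD2 at chr6:41542163-41542176, both on the plus strand and both rich in G:
TRBD1: gggacagggggc
TRBD2: gggactgggggggc

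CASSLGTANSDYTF, found in 5 WT cells and 1 Btla-/- cell, was the most frequent shared string and is shown for its 4 nucleotide variants, all joined to TRBJ1-2 (chr6:41534001-41534048). The V genes were TRBV12-1 (chr6:41113550-41114067) and TRBV26 (chr6:41227505-41227993):
TRBV12-1, 1 WT and 1 Btla-/- cell: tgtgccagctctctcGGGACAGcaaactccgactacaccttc
TRBV12-1, 2 WT cells: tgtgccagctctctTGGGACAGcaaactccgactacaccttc
TRBV26, 1 WT cell: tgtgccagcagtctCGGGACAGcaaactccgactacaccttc
TRBV26, 1 WT cell: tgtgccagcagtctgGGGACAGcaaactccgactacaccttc

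In all 4 variants the 7 bases next to the J segment equalled the start of TRBD1. In the first and the last, every base of the CDR3 was therefore found in a germline segment. The first is also one of only 3 chains that were identical in both libraries.

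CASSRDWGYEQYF, in 3 WT and 3 Btla-/- cells, had the most nucleotide variants, 5 of them with 4 V genes and TRBJ2-7 (chr6:41543810-41543856):
TRBV12-1, 1 WT cell: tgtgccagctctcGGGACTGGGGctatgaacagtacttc
TRBV13-3, 1 WT cell: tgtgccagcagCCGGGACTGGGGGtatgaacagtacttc
TRBV15, 1 WT cell: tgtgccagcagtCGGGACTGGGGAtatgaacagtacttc
TRBV15, 2 Btla-/- cells: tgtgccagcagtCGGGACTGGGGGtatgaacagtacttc
TRBV10, 1 Btla-/- cell: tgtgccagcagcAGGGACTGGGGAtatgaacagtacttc

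In each of these variants 10 or 11 junction bases matched TRBD2, and none of the 5 occurred in both libraries. TRBV15 was the only one of the 4 V genes that carried this string in both libraries.

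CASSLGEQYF is shown as a short string, 10 amino acids long, with 2 WT and 3 Btla-/- cells and 4 nucleotide variants. Every variant had 3 or 4 unmatched bases, and 1 nucleotide sequence was found in both libraries, with TRBV15 in the WT and TRBV14 in the Btla-/- library:
TRBV15, 1 WT cell: tgtgccagcagtttGGGGgaacagtacttc
TRBV15, 1 WT cell: tgtgccagcagtttGGGCgaacagtacttc
TRBV14, 1 Btla-/- cell: tgtgccagcagtttGGGGgaacagtacttc
TRBV12-2, 1 Btla-/- cell: tgtgccagctctctcGGGgaacagtacttc
TRBV26, 1 Btla-/- cell: tgtgccagcagtctgGGGgaacagtacttc

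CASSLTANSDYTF is shown because its WT and Btla-/- cells had no V gene in common. It had 1 WT cell with TRBV19 and 4 Btla-/- cells with TRBV3 or TRBV26, all with TRBJ1-2:
TRBV19, 1 WT cell: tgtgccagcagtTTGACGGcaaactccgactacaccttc
TRBV3, 2 Btla-/- cells: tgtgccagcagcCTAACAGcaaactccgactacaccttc
TRBV3, 1 Btla-/- cell: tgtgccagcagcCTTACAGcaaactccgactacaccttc
TRBV26, 1 Btla-/- cell: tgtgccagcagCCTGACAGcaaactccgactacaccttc

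The 4 variants had 7 or 8 unmatched bases each. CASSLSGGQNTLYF is shown for the largest single chain with a shared string and was carried by 4 WT cells with a single TRBV12-2 chain and by 1 Btla-/- cell with a TRBV16 chain, both joined to TRBJ2-4:
TRBV12-2, 4 WT cells: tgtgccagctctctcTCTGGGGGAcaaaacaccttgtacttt
TRBV16, 1 Btla-/- cell: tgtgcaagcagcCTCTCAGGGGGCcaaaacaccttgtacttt

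Relative to the WT chain, the Btla-/- chain had TRBD1 rather than TRBD2 as its longest D match. After these 5 strings, 8 were tied in frequency with 2 WT cells and 1 Btla-/- cell each. The naming rule took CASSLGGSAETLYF, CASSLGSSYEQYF, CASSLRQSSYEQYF, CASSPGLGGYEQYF and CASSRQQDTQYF, by their number of nucleotide variants and then in alphabetical order.

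Shared strings rarely shared nucleotides. Of the 113 strings, 99 (87.6%, 80.1 to 93.1%) had no CDR3 nucleotide sequence in common between the WT and Btla-/- cells. The other 14 had 1 in common, and in 11 of these 14 the same nucleotides came with different V genes in the 2 libraries. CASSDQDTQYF, chosen after its values were seen, is such a case: its single nucleotide sequence had no unmatched base and was joined from TRBV13-1 (chr6:41116007-41116468) in the WT cell and TRBV13-3 (chr6:41130147-41130585) in the Btla-/- cell, whose germline CDR3 ends are the same:
TRBV13-1, WT, and TRBV13-3, Btla-/-: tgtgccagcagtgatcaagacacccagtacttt

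Only 3 strings came with an identical chain, with the same V gene, J gene and nucleotides, each in 1 WT and 1 Btla-/- cell. Besides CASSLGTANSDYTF these were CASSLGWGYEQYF, with TRBV12-1 and TRBJ2-7, and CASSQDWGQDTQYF, with TRBV2 and TRBJ2-5:
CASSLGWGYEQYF: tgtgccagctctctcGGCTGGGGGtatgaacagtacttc
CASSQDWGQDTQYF: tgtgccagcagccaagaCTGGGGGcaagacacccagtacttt

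For each of the 3 identical chains the WT and the Btla-/- cell had different barcodes. In both of the chains just shown 7 junction bases matched TRBD2, and in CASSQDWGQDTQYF these were all of the unmatched bases.

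Over both libraries, 12 shared strings had 1 nucleotide sequence, 89 had 2, 8 had 3, 3 had 4 and 1 had 5. Since 93 strings were seen in a single cell of each library, 2 variants were the most that those strings could show. More than 1 V gene was used by 95 of 113 strings (84.1%, 76.0 to 90.3%), and all 113 used 1 J gene, which the amino acid string nearly fixes through its J-encoded end.

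**Figure D1:**
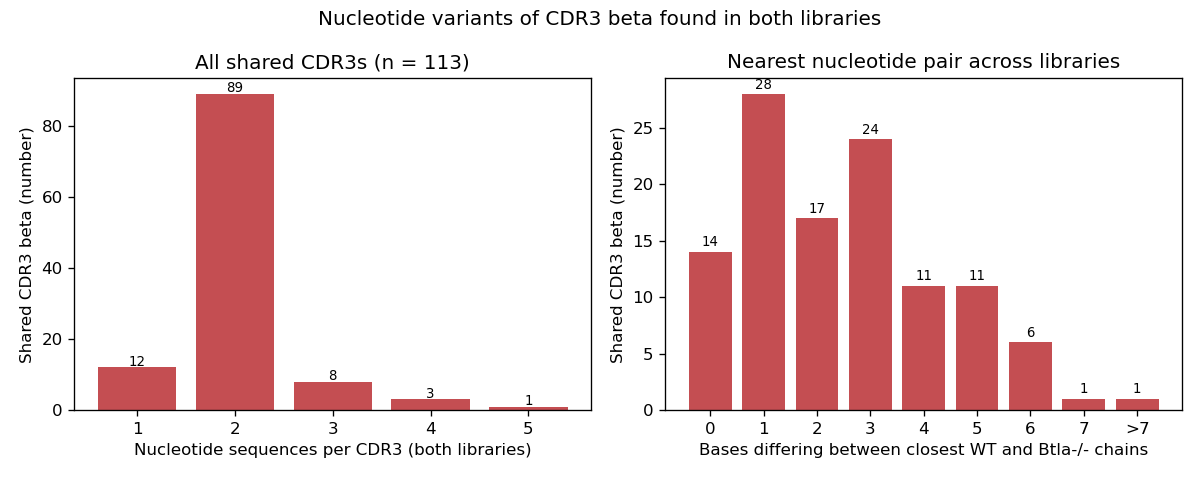
Left, number of shared CDR3 beta strings (y axis) by the number of nucleotide sequences that encoded them over both libraries (x axis); right, number of strings by the bases that differed between the closest WT and Btla-/- chain. Most strings, 89 of 113, had 2 nucleotide sequences, and 14 had a pair with no difference.

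Among the 99 strings without common nucleotides, the closest WT and Btla-/- sequences differed by a median of 3 bases. The difference was 1 base in 28 strings, 2 in 17, 3 in 24 and 4 or 5 in 11 each. The largest was 9 bases, in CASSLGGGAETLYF, which was outside the naming rule. The 285 differing bases of these pairs were divided between the V-encoded part, with 146 (51.2%), and the junction, with 139 (48.8%). None could lie in the J-encoded part, because both chains of a pair matched the same J gene there. In 92 of the 113 strings (81.4%, 73.0 to 88.1%) the closest pair used different V genes.

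When the V and J genes also had to be the same, 21 combinations of string, V gene and J gene were found in both libraries, over 11 V genes and 9 J genes. Of these, 3 were the identical chains and 18 had different nucleotides, by 1 to 4 bases with a median of 2. All 36 differing bases counted as junction, which the counting fixed, because bases matching the same V or J gene in both chains cannot differ. The pairs below were chosen after their values were seen, to show joints that differed by 1 or 2 bases within one V and J gene. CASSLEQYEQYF was joined from TRBV16 and TRBJ2-7, and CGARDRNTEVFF from TRBV20 and TRBJ1-1:
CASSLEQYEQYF, WT: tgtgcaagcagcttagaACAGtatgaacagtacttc
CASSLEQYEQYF, Btla-/-: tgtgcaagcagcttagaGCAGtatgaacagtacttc
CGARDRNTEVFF, WT: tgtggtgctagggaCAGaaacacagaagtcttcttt
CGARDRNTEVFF, Btla-/-: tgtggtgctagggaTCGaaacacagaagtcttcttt

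The number of nucleotide variants can be set against one-library strings only where a string recurred within a library. Among strings in 2 or more cells of the WT library, 8 of 12 shared strings (66.7%, 34.9 to 90.1%) had 2 or more nucleotide variants there, relative to 36 of 152 one-library strings (23.7%, 17.2 to 31.3%). In the Btla-/- library the counts were 6 of 10 (60.0%, 26.2 to 87.8%) and 51 of 272 (18.8%, 14.3 to 23.9%). The intervals lay apart in both libraries. Among strings in exactly 2 cells the WT shares were 66.7% (6 of 9) and 27.4% (32 of 117), and the Btla-/- shares 42.9% (3 of 7) and 18.8% (49 of 261). With so few strings the exact intervals overlapped in both libraries, and the interval of the difference included 0 in the Btla-/- library. Recurrence itself was seen in 10.6% of shared and 3.99% of one-library strings in the WT library, and in 8.85% and 5.70% in the Btla-/- library. The differences were 6.63 percentage points (1.57 to 13.9) in the WT and 3.15 (-1.43 to 10.0) in the Btla-/- library, where 0 was included.

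Shared CDR3s were shorter. The mean length of WT chains was 13.4 amino acids (SD 1.36, n = 126) for shared and 14.2 (SD 1.51, n = 3851) for one-library strings, a difference of -0.827 (95% interval -1.07 to -0.585). In the Btla-/- library the means were 13.4 (SD 1.41, n = 121) and 14.3 (SD 1.51, n = 4822), a difference of -0.923 (-1.18 to -0.669). Both distributions peaked at 14 amino acids, and the shared strings ranged from 9 to 16. At 10 amino acids 4 of 27 WT chains (14.8%) and 5 of 48 Btla-/- chains (10.4%) had a shared string. At 14 amino acids the shares were 4.63% and 3.38%, and at 16 they were 0.784% and 0.604%. None of the 167 WT and 221 Btla-/- chains of 17 amino acids had a shared string (upper limits 2.18% and 1.66%).

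**Figure D2:**
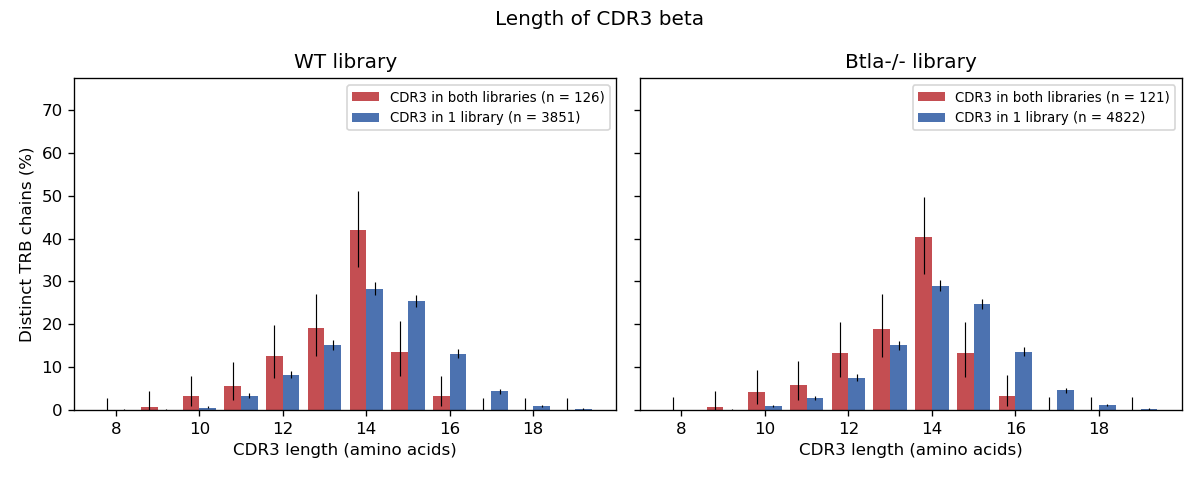
Share of distinct TRB chains (y axis, percent) by CDR3 length in amino acids (x axis) for chains whose CDR3 was in both libraries (red) and in 1 library (blue), with exact 95% intervals as lines. Lengths of 8 to 19 amino acids are drawn. Shared chains lie to the left of one-library chains in both libraries, with none at 17 amino acids or longer.

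The junction accounted for most of the difference in length. Junction bases matched to neither V nor J averaged 8.29 (SD 3.62) in shared and 10.6 (SD 3.97) in one-library WT chains, a difference of -2.34 (-2.98 to -1.70). In the Btla-/- library the means were 7.98 (SD 3.81) and 10.8 (SD 4.0), a difference of -2.81 (-3.50 to -2.12). The bases matched to J averaged 18.7 in shared and 18.5 in one-library chains in both libraries, and the intervals of these differences included 0. The bases matched to V were 13.2 and 13.6 in the WT library (difference -0.361, -0.704 to -0.0184) and 13.4 and 13.6 in the Btla-/- library (-0.182, -0.535 to 0.170).

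With the D-matched bases also taken away, shared WT chains had a mean of 3.09 bases (SD 2.26) matched to no germline segment and one-library chains 4.57 (SD 2.83), a difference of -1.49 (-1.89 to -1.08). The corresponding Btla-/- values were 3.04 (SD 2.27) and 4.72 (SD 2.84), a difference of -1.68 (-2.09 to -1.27). A match of 5 or more D bases was present in 67.5% of shared and 77.8% of one-library WT chains, and in 65.3% and 78.0% of Btla-/- chains. Chains with fewer than 5 unmatched bases cannot hold such a match. Up to 3 unmatched bases were present in 11.1% of shared and 3.45% of one-library WT chains, and in 16.5% and 3.03% of Btla-/- chains. The lower share of D matches is therefore not separate from the smaller junctions. The deposited annotation gave a D gene call to 15.9% and 23.8% of WT chains (difference -7.96 percentage points, -14.0 to -0.276) and to 14.9% and 23% of Btla-/- chains (-8.08, -14.0 to -0.378). The interval included 0 in the WT with exactly 1 TRB contig (-7.67, -13.9 to 0.285) and in the Btla-/- library without barcodes of both libraries (-7.57, -13.7 to 0.295).

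The share of chains with a shared string was highest for the smallest junctions and lowest for the largest. Among chains with 0 to 3 unmatched bases, 14 of 147 WT chains (9.52%, 5.31 to 15.5%) and 20 of 166 Btla-/- chains (12.0%, 7.52 to 18%) had a shared string. With 13 or more unmatched bases the shares were 1.42% (17 of 1196) and 0.891% (14 of 1571). The intervals of the smallest and the largest junctions lay apart in both libraries. The shared strings are the same list in each library, so this agreement is partly set by the rule.

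**Figure D3:**
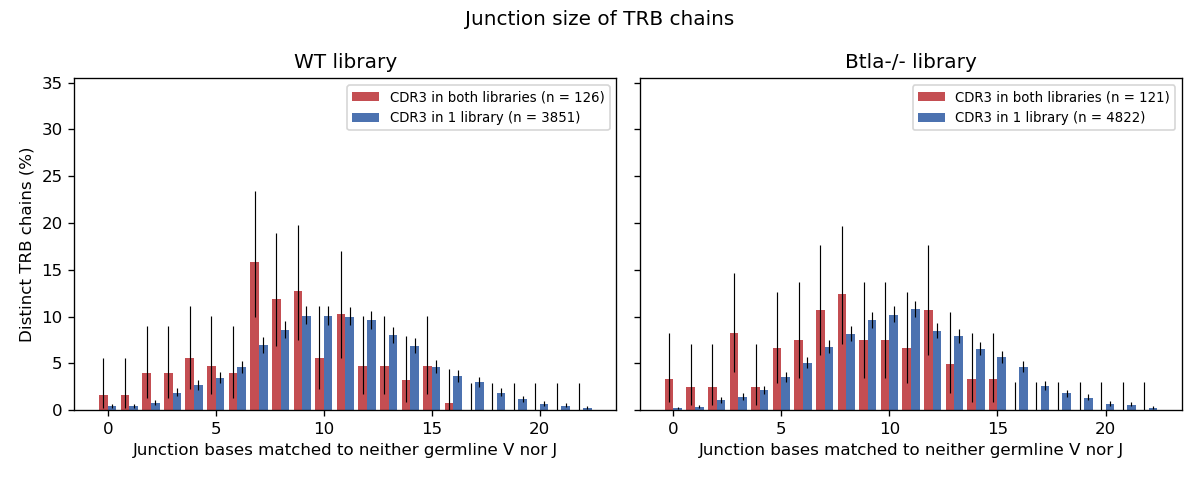
Share of distinct TRB chains (y axis, percent) by the number of junction bases matched to neither germline V nor J (x axis), for chains whose CDR3 was in both libraries (red) and in 1 library (blue), with exact 95% intervals as lines. Chains with more than 22 such bases are not drawn. The mean was 8.29 and 10.6 bases in the WT library and 7.98 and 10.8 bases in the Btla-/- library.

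Length and junction size were not independent. At each length from 10 to 16 amino acids the mean of the bases matched to neither V nor J was lower in shared than in one-library chains of both libraries, with few shared chains at most lengths. At 12 amino acids the difference was -2.58 (-3.78 to -1.37) in the WT, with 16 shared chains, and -2.72 (-4.12 to -1.32) in the Btla-/- library, also with 16. Among these lengths, 12 was the only one where the interval left out 0 in both libraries. At 13 amino acids the differences were -0.469 (-1.54 to 0.604) and -1.10 (-2.35 to 0.159). Among chains of 14 amino acids, where total length was the same, the difference in bases matched to neither V nor J was -0.513 (-1.28 to 0.257) in the WT and -0.80 (-1.61 to 0.0109) in the Btla-/- library, and both intervals included 0. With D-matched bases taken away, the means at this length were 2.98 (SD 2.44, n = 53) and 4.28 (SD 2.65, n = 1092) in WT chains, and 3.06 (SD 2.24, n = 49) and 4.25 (SD 2.52, n = 1400) in Btla-/- chains. These differences were -1.30 (-1.97 to -0.624) and -1.19 (-1.83 to -0.552). At 12 and 13 amino acids the same measure differed by -0.493 (-1.52 to 0.530) and -0.332 (-1.42 to 0.756) in the WT, intervals that included 0. The Btla-/- differences at these lengths were -1.13 (-2.13 to -0.131) and -1.10 (-2.08 to -0.123). At 15 amino acids they were -1.44 (-2.41 to -0.476) in the WT and -0.746 (-1.97 to 0.480) in the Btla-/- library, where 0 was included.

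Nearly all shared strings had the same opening. CASS began 101 of the 113, CASSL 43, CASSP 24, CASSR 15 and CASSLG 16. Counted as chains, CASS began 90.5% (84.0 to 95%) of shared and 67.1% (65.6 to 68.6%) of one-library WT chains, and 90.1% (83.3 to 94.8%) and 68.1% (66.8 to 69.5%) of Btla-/- chains. CASSL began 40.5% and 17.1% of WT chains and 41.3% and 17.6% of Btla-/- chains. Many V genes encode CASS, whereas other openings belong to few. CTCS, the TRBV1 opening, began 224 WT and 253 Btla-/- chains and none of them had a shared string (upper limits 1.63% and 1.45%). CASG, the opening of TRBV13-2, began 403 WT chains, of which 3 (0.744%) had a shared string, and 486 Btla-/- chains, of which 3 did (0.617%).

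V usage differed between shared and one-library chains for a few V subgroups. A subgroup was counted as higher or lower when the 2 exact intervals did not overlap. In the WT library 12.5% of the 16 subgroups with enough chains were higher and 12.5% were lower, and in the Btla-/- library 5.88% of 17 were higher and 11.8% lower. Of the 16 subgroups compared in both libraries, none was higher in both, and TRBV1 and TRBV13 were lower in both (12.5%). The shared strings are the same list in each library, and the openings CTCS and CASG nearly fix the V gene. Agreement for TRBV1 and for the TRBV13-2 part of TRBV13, with 3 shared chains in each library, is therefore not a second observation. TRBV1 was absent from shared chains, with 0 of 126 in the WT and 0 of 121 in the Btla-/- library (upper limits 2.89% and 3.0%), relative to 6.02% and 5.37% of one-library chains. TRBV13, which includes the CASG-encoding TRBV13-2, made up 11.9% (6.82 to 18.9%) of shared and 20.8% (19.6 to 22.1%) of one-library chains in the WT library and 7.44% (3.46 to 13.7%) and 20.6% (19.5 to 21.8%) in the Btla-/- library. The WT intervals of TRBV13 overlapped with contigs of at least 3 UMIs, with exactly 1 TRB contig and without identical chains.

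TRBV12, the most used subgroup among shared chains, made up 21.4% (14.6 to 29.6%) of them and 11.1% (10.1 to 12.1%) of one-library chains in the WT library. In the Btla-/- library it made up 15.7% (9.73 to 23.4%) and 10.8% (9.92 to 11.7%), with overlapping intervals. The WT excess lay in TRBV12-1, at 17.5% and 6.52% with intervals apart, whereas TRBV12-2 was at 3.97% and 4.57%. In the Btla-/- library TRBV12-1 was at 9.92% and 7.13% and TRBV12-2 at 5.79% and 3.65%, with overlapping intervals for each. TRBV15 was higher in the WT library, at 11.9% (6.82 to 18.9%) and 5.38% (4.68 to 6.14%), and in the Btla-/- library its intervals overlapped, at 10.7% (5.85 to 17.7%) and 5.27% (4.65 to 5.94%). TRBV15 stood higher in both libraries with contigs of at least 3 UMIs, without barcodes of both libraries and without identical chains, where the Btla-/- differences were 5.84, 5.76 and 5.75 percentage points. TRBV3 accounted for 7.94% and 6.26% of WT and 9.92% and 5.91% of Btla-/- chains, with overlapping intervals. TRBV26, outside the naming rule and named after its values were seen, was the subgroup higher in the Btla-/- library, at 9.09% (4.63 to 15.7%) and 3.86% (3.33 to 4.44%). In the WT library TRBV26 was at 6.35% (2.78 to 12.1%) and 3.19% (2.66 to 3.80%), the same direction with overlapping intervals.

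**Figure D4:**
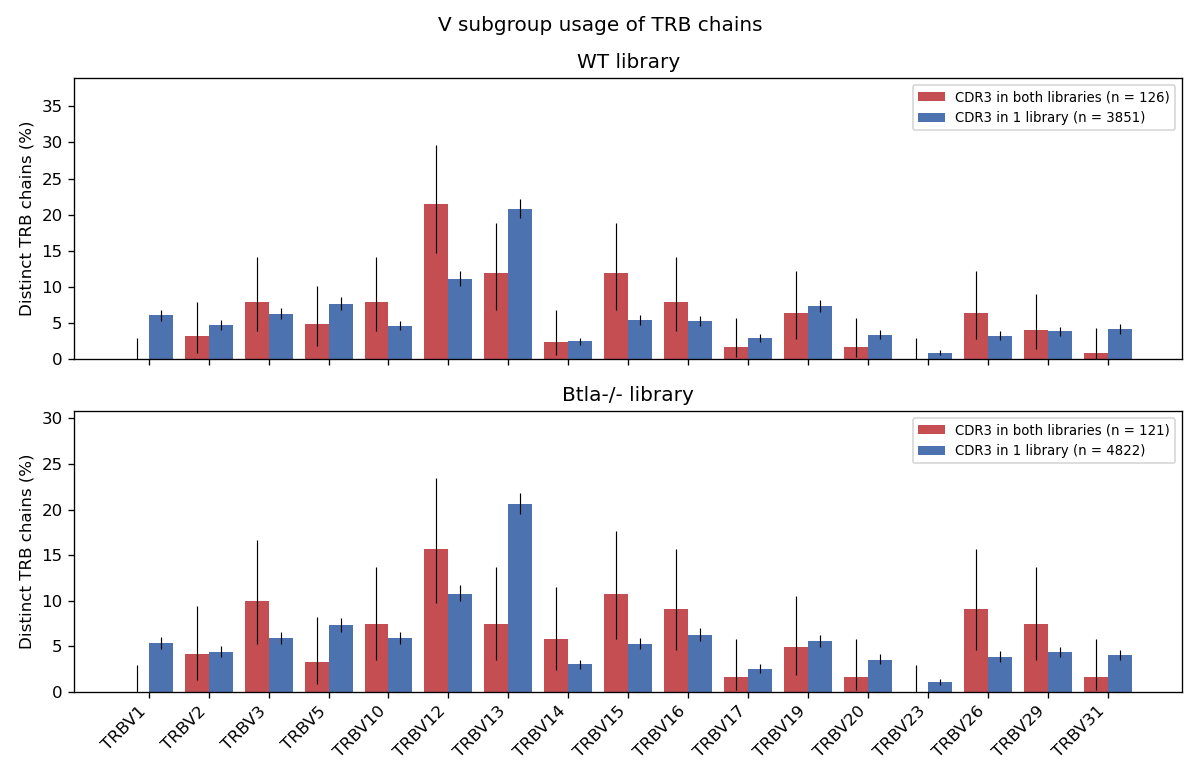
Share of distinct TRB chains (y axis, percent) by V subgroup (x axis) in the WT library (top) and the Btla-/- library (bottom), for chains whose CDR3 was in both libraries (red) and in 1 library (blue), with exact 95% intervals as lines. TRBV1 has no shared chain in either library, and TRBV13 is lower among shared chains in both. Shared chains carry the same list of strings in both panels.

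V usage was also compared within one opening. Among chains that started with CASS, an alternative chosen after seeing the data, no subgroup stood apart in the WT library, and TRBV13 (3.67% of shared and 12.9% of one-library chains) and TRBV5 (3.67% and 10.6%) were lower in the Btla-/- library.

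J usage of the shared strings was compared with one-library chains in each library, where the shared side is the same list of strings and J genes. Of 12 J genes, 16.7% were higher and none was lower among shared chains in each library. TRBJ2-7, whose germline CDR3 part is the shortest at 19 bases, made up 23.8% (16.7 to 32.2%) of shared and 15.5% (14.3 to 16.6%) of one-library WT chains, and 23.1% (16.0 to 31.7%) and 14.6% (13.6 to 15.6%) of Btla-/- chains. TRBJ1-2, at 20 bases, made up 14.3% (8.69 to 21.6%) and 6.34% (5.59 to 7.15%) of WT chains and 13.2% (7.75 to 20.6%) and 6.86% (6.17 to 7.61%) of Btla-/- chains. The intervals stood apart by little. They take chains of one string as separate draws, although the string nearly fixes the J gene. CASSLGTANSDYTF alone gave 4 of the 18 shared WT chains with TRBJ1-2, and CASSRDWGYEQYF 3 of the 30 with TRBJ2-7. The intervals are therefore likely too narrow, and J usage counted once per string was not compared. TRBJ1-2 no longer stood apart in either library when the 3 identical chains were left out, nor TRBJ2-7 in either when only cells with exactly 1 TRB contig were kept.

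TRBJ1-6, whose germline part is the longest at 25 bases, was used by 1 shared chain in each library, 0.794% of WT and 0.826% of Btla-/- shared chains, relative to 4.10% and 3.65% of one-library chains, with overlapping intervals. TRBJ1-4 accounted for 4.76% and 7.84% of WT and 4.96% and 8.65% of Btla-/- chains. TRBJ1-1, also at 20 bases, accounted for 11.1% and 11.8% of WT and 11.6% and 11.1% of Btla-/- chains. The J1 cluster as a whole contributed 38.1% and 39.8% of WT chains and 38.8% and 40.3% of Btla-/- chains.

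**Figure D5:**
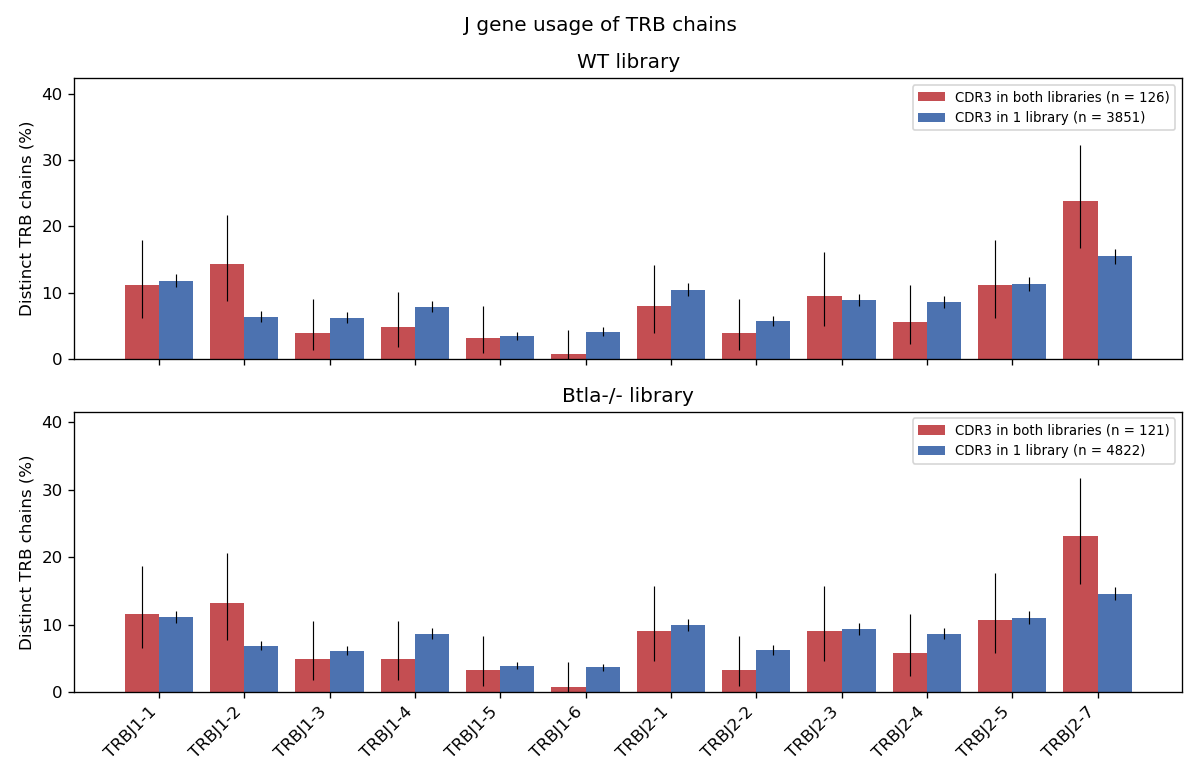
Share of distinct TRB chains (y axis, percent) by J gene (x axis) in the WT library (top) and the Btla-/- library (bottom), for chains whose CDR3 was in both libraries (red) and in 1 library (blue), with exact 95% intervals as lines. TRBJ1-2 and TRBJ2-7 are higher among shared chains, whose strings and J genes are the same in both panels. A string with several chains is counted once per chain.

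Junction residues, the amino acids whose codons were not wholly matched to germline V or J, differed for few of the 20 amino acids. Of 20 residues, 5% were higher and 10% lower in the WT library, and none was higher and 5% lower in the Btla-/- library. Glycine, which the G-rich D segments encode, made up 29.9% (25.6 to 34.6%) of shared and 29.4% (28.7 to 30.1%) of one-library junction residues in WT chains and 30.3% and 29.2% in Btla-/- chains. Intervals of the glycine differences ran from -3.90 to 5.17 percentage points in the WT and from -3.41 to 6.04 in the Btla-/- library. Valine, with 3 residues among the shared chains of each library, was lower, at 0.713% and 2.45% in WT and 0.771% and 2.53% in Btla-/- chains, the shared values coming from the same strings. Histidine was lower in the WT library, at 0.238% and 1.51%, and its intervals overlapped in the Btla-/- library, at 0.257% and 1.35%. Leucine was higher in the WT library (7.36% and 4.67%), and in the Btla-/- library the values were 6.17% and 4.94%, with overlapping intervals.

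Leucine, serine and arginine, which have 6 codons each, were grouped after their values were seen. Together they made up 26.4% of shared and 21.2% of one-library junction residues in WT chains, a difference of 5.21 percentage points (1.01 to 9.73). The Btla-/- values were 24.7% and 21.6%, a difference of 3.11 (-1.13 to 7.74). Intervals of residue shares, here and above, take each residue as a separate draw. Several residues came from one chain, and some strings were counted in several chains, so these intervals are likely too narrow. A pair of hydrophobic residues at CDR3 positions 6 and 7, a feature associated with self-reactive TCRs, was found in 0 of 126 WT and 0 of 121 Btla-/- shared chains, relative to 2.0% and 1.80% of one-library chains. The upper limits for 0 chains were 2.89% and 3.0%, above the one-library shares.

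Shared strings had more near relatives within their own library. At least 1 other string of the same library differed by 1 amino acid substitution for 81 of 113 shared strings in the WT library (71.7%, 62.4 to 79.8%) and for 890 of 3810 one-library strings (23.4%, 22 to 24.7%). In the Btla-/- library the shares were 78.8% (70.1 to 85.9%) and 25.1% (23.9 to 26.4%). The mean number of such neighbours was 1.56 and 0.357 in the WT and 2.04 and 0.425 in the Btla-/- library. Neighbours were counted on the amino acid strings that also chose the members, so these shares are a description. At a fixed length of 14 amino acids the shares were 78.7% and 30.2% in the WT and 87.2% and 35.3% in the Btla-/- library, with intervals apart. At 12 amino acids the WT intervals overlapped, at 53.3% (26.6 to 78.7%) and 31.2% (26.1 to 36.7%), and the Btla-/- intervals lay apart. At 13 and 15 amino acids the intervals lay apart in both libraries. Many one-library strings also came within 1 substitution of a string of the other library, namely 929 of 3810 WT strings (24.4%) and 1074 of 4771 Btla-/- strings (22.5%).

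The alpha chain was not used to choose the cells. A TRA chain was read in 52 of 131 WT cells with a shared string (39.7%, 31.3 to 48.6%) and in 41.8% of other WT cells with a TRB chain. In the Btla-/- library it was read in 54 of 127 cells (42.5%, 33.8 to 51.6%) and in 34.4% of the others, a difference of 8.12 percentage points whose interval, -0.706 to 17.3, included 0. With exactly 1 TRB contig the difference was 9.55 (0.522 to 19), which did not include 0. For 23 shared strings an alpha chain was known in both libraries. None of these 23 had a CDR3 alpha in common between WT and Btla-/- cells (upper limit 14.8%), 1 used the same TRAV gene and none the same TRAV and TRAJ genes. Of the 3 chains identical in both libraries, only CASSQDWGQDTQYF had an alpha chain in both cells.

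Within a library, 3 WT and 6 Btla-/- chains with a shared string were found in 2 or more cells, and the largest was the TRBV12-2 chain of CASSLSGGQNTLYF in 4 WT cells. An alpha chain was known in 2 cells for 1 of these WT and 3 of these Btla-/- chains, and it was the same in 1 of 1 and 1 of 3. Among one-library chains it was the same in 24 of 29 and 43 of 54. The CDR3 alpha of cells with a shared CDR3 beta was found in the other library for 3 of 57 WT TRA chains (5.26%) and 4 of 55 Btla-/- chains (7.27%), relative to 6.14% and 5.99% for other cells. TRAJ1 to TRAJ30, the J genes nearest the constant gene, were used by 47.4% of WT and 65.5% of Btla-/- TRA chains of cells with a shared string, relative to 48.4% and 57.4% in other cells, with overlapping intervals in each library.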

How the data were processed

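Thymic CD4 SP T cells of 1 WT and 1 Btla-/- library were analysed. Contigs were built and annotated by the authors (Cell Ranger 7.2.0, V(D)J reference GRCm38 7.0.0), and the deposited tables hold raw read and UMI counts of full-length productive contigs. Summary tables made by the authors with scRepertoire 2.0.0 (CDR3 lengths, V gene percentages, clone proportions) were not used. No step removed droplets with more than 1 cell.

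Germline V, D and J sequences were read from GRCm38 chromosome 6 with the GENCODE M21 annotation. Each CDR3 was matched exactly to its V from the cysteine inward and its J from the phenylalanine inward. The longest stretch of 5 or more unmatched bases equal to TRBD1 or TRBD2 was taken as D. Chance matches shorten the unmatched part, and P nucleotides count as unmatched. Chains called TRBV10 in the deposited annotation, all 497, carry the sequence of the GRCm38 gene TRBV4 and were matched to it under the deposited name. The 733 chains called TRBV12-2+TRBV13-2 carry TRBV13-2 and were counted as TRBV13.

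Each distinct chain counted once per library. Shares have exact intervals, differences of shares combine the exact bounds, and differences of means use standard errors. V subgroups were compared where they held at least 1% of chains. Precision rests on 126 and 121 shared chains, so a share of 11.9% of the WT chains has an interval of 6.82 to 18.9%. Intervals and the junction matching were checked on simulated data. Named were the 10 strings with the largest summed share of cells, the 5 with most nucleotide variants, the identical chains, and the V subgroups and J genes most used or most different in share. At the last place of each list of strings 8 were tied. Ties in the first list were broken by number of variants and then in alphabetical order. In the second, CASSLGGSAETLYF was taken, alphabetically the first of the tied strings with the largest summed share. The members and lists were chosen with earlier results of these data known. Other settings tried were a minimum of 3 UMIs per contig, only cells whose TRB contig was single, barcodes of both libraries left out, identical chains left out, the same V and J gene required, every cell counted, chains of 14 amino acids only, D matches of 3 or 7 bases, fixed junction positions, single V genes, strings in exactly 2 cells, and CASS starts only. No column was left out as belonging to no sample. Computations used Python 3.11.15, pandas 2.3.3, numpy 2.4.6, scipy 1.17.1 and matplotlib 3.10.9.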

Additional observations from a re-analysis of the deposited data

How the results depend on the processing

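Of 166 values under other settings, 137 moved by less than their interval, or for counts of genes by less than 1.5 times. Among them were the length differences, under each of 7 settings, and the share of strings without common nucleotides (85.7 to 90.0%), under each of 5. With the same V and J gene required, 21 shared combinations were left, 0.574% of WT and 0.439% of Btla-/- cells. The difference in bases matched to neither V nor J was then -3.43 (WT) and -3.54 (Btla-/-), and that matched to no V, D or J was -2.08 (WT). D gene calls differed by -14.6 and cells with a TRA chain by -11.4 percentage points (WT). The neighbour differences were 37.4 (WT) and 40.5 (Btla-/-), and the differences in several nucleotide variants 92.9 (WT) and -2.99 (Btla-/-, with the direction turned). The intervals of the D gene call, TRA and variant differences included 0. Each variant difference rested on a single recurrent shared combination. These were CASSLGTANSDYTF with TRBV12-1 in 3 WT cells and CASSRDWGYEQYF with TRBV15 in 2 Btla-/- cells. No V subgroup and no J gene stood apart (0 in each library).

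The number of J genes apart, 2 in each library, was 1 in the Btla-/- library with at least 3 UMIs, 1 in each with exactly 1 TRB contig, 1 in the WT without barcodes of both libraries, 1 in each without identical chains, 1 in the WT with every cell counted and 1 in the Btla-/- library with CASS starts only. V subgroups apart in the WT fell from 4 to 0 with CASS starts only, an alternative chosen after seeing the data. At 14 amino acids the differences in bases matched to neither V nor J were -0.513 (WT) and -0.80 (Btla-/-), that matched to no V, D or J was -1.19 (Btla-/-), and the glycine difference was 5.74 percentage points (WT). The causes were not tested. No paired analysis was possible because each genotype had 1 library, and no replicate could be left out. The 126 and 121 shared chains limit what could be seen.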
